A study of Mus musculus with 6 samples.

Results

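The proteasome genes described here were 40 of the 53700 genes listed in the deposited expression table. They were chosen by name as subunits of the 20S core particle, of its 19S and PA28 regulators and as an inhibitor and an assembly factor of the proteasome, by a rule that uses no measured value. Each name occurred once in the table, and all 40 passed the filter on low values. The members fell into 5 genes known to be induced by interferon, namely Psmb8, Psmb9, Psmb10, Psme1 and Psme2, and 35 others. Both the members and this split were set with earlier results of these data known.

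The cells were SL4, a mouse colorectal cancer (CRC) line that expresses luciferase. The pLV-SEMA6A group was a stable line made with a lentivirus for overexpression of SEMA6A, a transmembrane semaphorin, and the pLV-Control group was SL4 without that overexpression. The sources used here describe 1 line per group and name no separately made lines, and they call the control both SL4 and pLV-Control, so whether it carried an empty vector was not settled. Poly-A mRNA was sequenced from 3 libraries per group, which the labels do not tie to separate cultures, so the p-values measure only the spread between these libraries, which may be technical.

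The proteasome is the protease that degrades ubiquitin-tagged proteins and supplies most of the peptides that MHC class I molecules present. Its barrel-shaped core has outer rings of α subunits and inner rings of β subunits, of which β1, β2 and β5 carry the active sites. Interferon replaces these by the immuno subunits Psmb9, Psmb10 and Psmb8, giving the immunoproteasome, and induces the PA28αβ cap made of Psme1 and Psme2, while the 19S cap recognises, unfolds and feeds in the tagged substrates.

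Expression was given as TPM (transcript abundance corrected for length and for the total of the library), which keeps no sequencing depth, so the reads behind a value and a detection limit are unknown. Per library, 19340 to 19463 genes had a value over 0 in pLV-Control and 18798 to 18887 in pLV-SEMA6A. Sema6a itself read 0 in all 3 pLV-Control libraries against 98.7, 118 and 112 TPM in pLV-SEMA6A cells. Of 10 colon epithelial markers, 9 stayed under 1 TPM in every library, and Lgals4 was at 1.78 to 2.33 TPM in pLV-Control and 0 to 0.81 TPM in pLV-SEMA6A. Epcam, Cdx1 and Cdx2 were listed at 0 in every library and Cdh1 reached 0.03 TPM, so the defining markers of the labelled tissue were absent or nearly so. Of 12 markers of blood cells, which hold immunoproteasome at rest, 11 stayed under 1 TPM in every library, with Cd3e, Cd3g, Adgre1 and Itgam listed at 0 throughout, and their summed level was 1.26 to 2.58 TPM in pLV-Control cells against 1.07 to 1.88 TPM in pLV-SEMA6A cells. The 8 stromal markers summed to 123.48 to 138.88 TPM in pLV-Control cells against 180.51 to 187.73 TPM in pLV-SEMA6A cells, most of it Col3a1. The sum hides opposite directions, since of the 4 that averaged 1 TPM or more, 2 were higher in pLV-SEMA6A (Col3a1 and Col1a1) and 2 lower. Pdgfrb was at 10.21 to 10.72 TPM in pLV-Control against 6.53 to 6.92 TPM in pLV-SEMA6A. Pdgfra was at 1.54 to 2.14 TPM in pLV-Control against 0.63 to 0.92 TPM in pLV-SEMA6A. The endothelial gene Cdh5 was listed at 0 in every library. Whether these markers bear on the results was not tested.

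All 5 interferon-inducible proteasome genes fell in the pLV-SEMA6A libraries, whereas most of the other subunits rose slightly. Psmb9 and Psmb8 dropped to at most 1.00 TPM in every pLV-SEMA6A library. Psme2 fell by 61.8%, Psme1 fell by 30.6% and Psmb10 fell by 30.4%. Fewer expressing cells and less RNA per cell cannot be told apart in these bulk libraries. Genes were compared on the log2(TPM + 1) scale with limma, with Benjamini-Hochberg adjustment over the 12510 genes that averaged 1 TPM or more, a scale that understates the change of low genes. A gene passed the test at an adjusted p under 0.05, and counted as a differentially expressed gene (DEG) when its absolute log2 fold change was also over 0.5. Of the 40 members, 5 were DEGs that fell, against 10.8% of all genes tested, and these were the 5 inducible genes. Psmd6 was the 1 DEG that rose, against 5.12% of all genes. By the adjusted p alone 9 members fell (28.2% of all genes did) and 24 rose (19.5%), while 7 did not pass. The libraries of the groups did not overlap for 37 members, which was also the case for 58.5% of all genes. The median log2 fold change of the 40 members was 0.18, beside −0.06 over all genes tested.

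With the libraries centred on their medians, 3 members were DEGs that fell and 4 were DEGs that rose, and 961 genes fell and 1002 rose over the whole table, where the uncentred fit gave 1347 and 640. Psmb8, Psmb9 and Psme2 remained beyond the fold limit under this scaling, whereas Psmb10 (−0.42) and Psme1 (−0.43) did not reach it, and Psmd1, Psmd12 and Psmc3 joined Psmd6.

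**Figure D1:**
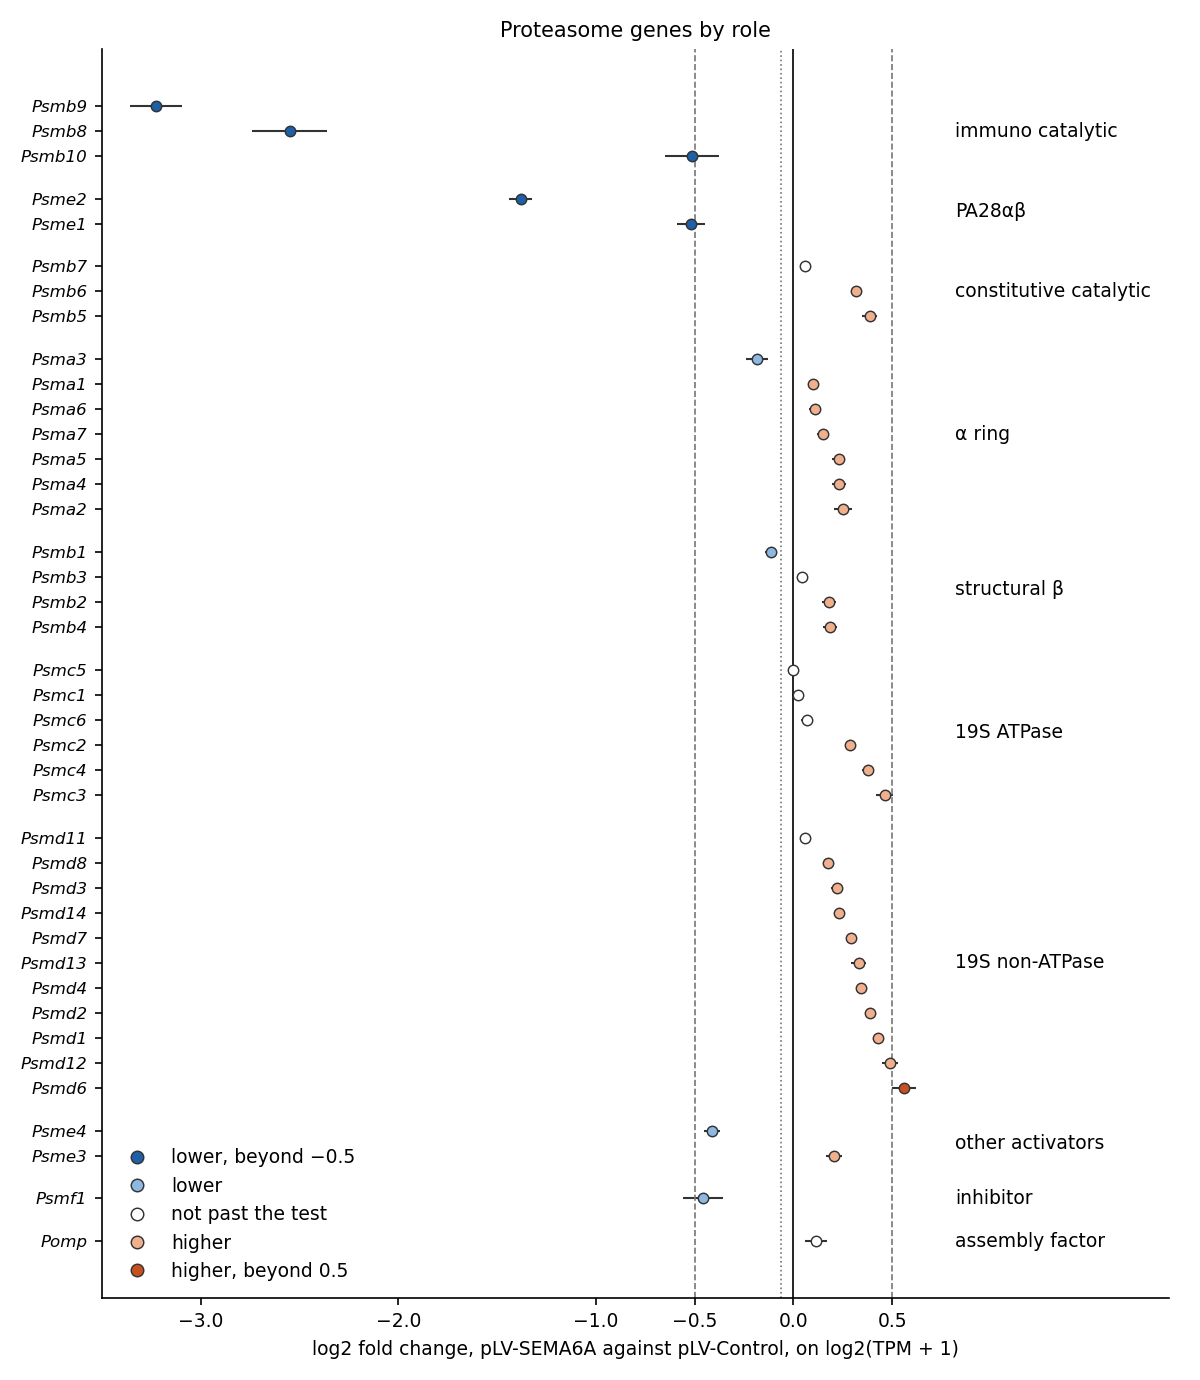
Log2 fold change of the 40 proteasome genes, pLV-SEMA6A against pLV-Control on log2(TPM + 1), by role. Points are limma estimates and bars their SE (3 libraries per group), dashed lines mark ±0.5 and the dotted line the median of all genes tested (−0.06). The 5 inducible genes at the top lie between −3.23 and −0.51, and the 35 others between −0.46 and 0.56.

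Psmb9 encodes β1i, the immuno form of the β1 site, which favours peptides with hydrophobic ends over those with acidic ends. It stood at 14.4, 11.9 and 11.9 TPM in pLV-Control cells against 0.66, 0.38 and 0.37 TPM in pLV-SEMA6A cells. Every pLV-SEMA6A library was far below every pLV-Control library, and the group means differed 27.1-fold. Its log2 fold change of −3.23 (SE 0.13, n = 3 per group, limma adjusted p = 1.06e-05) was exceeded by 12 of the 12510 genes tested.

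Psmb8 encodes β5i, which takes the place of the chymotrypsin-like β5 subunit. Its levels were 7.81, 7.31 and 9.28 TPM in pLV-Control cells against 1.00, 0.32 and 0.42 TPM in pLV-SEMA6A cells. The groups lay well apart, with pLV-SEMA6A replicate 1 the highest of the low group, and the means differed 14.0-fold. The log2 fold change was −2.55 (SE 0.19, limma adjusted p = 0.000108), and 40 genes fell more.

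Psmb10 encodes β2i, the immuno form of the trypsin-like β2 site, and was both the most abundant of the 3 immuno subunits and the one with the smallest change. It read 41.6, 37.4 and 32.8 TPM in pLV-Control cells against 21.3, 26.5 and 29.9 TPM in pLV-SEMA6A cells. The groups did not overlap, but the gap between the lowest pLV-Control and the highest pLV-SEMA6A library was smaller than the spread within either group. The log2 fold change was −0.51 (SE 0.14, limma adjusted p = 0.0214), which 1589 genes exceeded. This call did not pass without pLV-Control replicate 1 (−0.43, adjusted p = 0.0808, limma) or 2 (−0.51, adjusted p = 0.0659, limma). Nor did it pass without pLV-SEMA6A replicate 2 (−0.54, adjusted p = 0.0544, limma). It was also lost with no filter on low values (adjusted p = 0.0532, limma) and with replicate number as a block (adjusted p = 0.0593, limma). The log2 fold change without pLV-SEMA6A replicate 1 was −0.39.

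Psme2 encodes PA28β, a subunit of the cap that opens the core without ATP and shapes the peptides that leave it. It was the inducible gene with the highest level, at 265, 264 and 243 TPM in pLV-Control cells against 106, 92.5 and 96.0 TPM in pLV-SEMA6A cells. The 2 groups were tight and far apart, and the log2 fold change was −1.38 (SE 0.06, limma adjusted p = 1.42e-05). Of the 31-base stretches of its annotated transcripts, 33.5% also occur in Psme2b, which was listed at no more than 1.96 TPM.

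Psme1 encodes PA28α, which assembles with PA28β into 1 ring. It was measured at 70.2, 79.0 and 74.9 TPM in pLV-Control cells against 47.2, 54.8 and 53.7 TPM in pLV-SEMA6A cells. The groups did not overlap, and the log2 fold change of −0.52 (SE 0.07, limma adjusted p = 0.00137) was smaller than that of Psme2. It stayed past the test but inside the fold limit without pLV-Control replicate 2 (−0.48) or pLV-SEMA6A replicate 1 (−0.45). Per transcript of Psme2 there were 0.265, 0.299 and 0.309 of Psme1 in the pLV-Control libraries, and 0.445, 0.592 and 0.559 in the pLV-SEMA6A libraries, on the TPM scale. These ratios did not overlap (exact permutation p = 0.1, two-sided, the smallest possible), and the summed level of both genes went from 332 ± 13.0 to 150.1 ± 2.99 TPM (SD, n = 3).

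The constitutive catalytic subunits did not follow their immuno counterparts. Psmb5, the β5 subunit and the target of the drug bortezomib, was at 311, 314 and 286 TPM in pLV-Control cells against 401, 394 and 396 TPM in pLV-SEMA6A cells. Every pLV-SEMA6A library was higher, and the log2 fold change was 0.39 (SE 0.04, limma adjusted p = 0.000372). Its level is uncertain, since 71.7% of the 31-base stretches of its transcripts occur in other genes, although the gene that shared most of them, Gm3375, was listed at 0.

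Psmb6, the caspase-like β1 subunit, rose from 301, 296 and 301 TPM to 372, 369 and 377 TPM (log2 fold change 0.32, SE 0.02, limma adjusted p = 5.92e-05). Psmb7, the β2 subunit, was at 268, 279 and 269 TPM in pLV-Control cells against 281, 282 and 285 TPM in pLV-SEMA6A cells. The Psmb7 groups did not overlap but lay close together, and the log2 fold change of 0.06 (SE 0.02) did not pass (limma adjusted p = 0.0912). Psmb7 did pass as higher in centred libraries (0.15, adjusted p = 0.0039, limma) and without pLV-Control replicate 2 (0.08, adjusted p = 0.0445, limma).

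**Figure D2:**
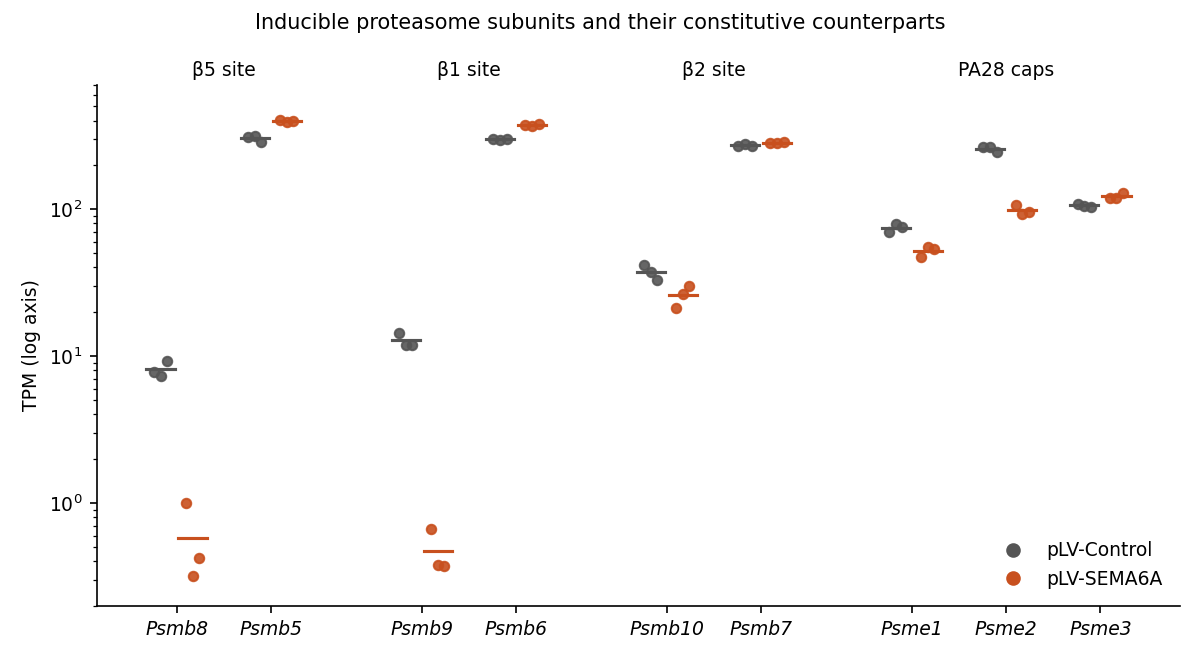
TPM of the inducible subunits and of their constitutive counterparts in each library, on a log axis, with bars at the group means. Grey points are the 3 pLV-Control and orange points the 3 pLV-SEMA6A libraries. Psmb8 and Psmb9 reach at most 1.00 TPM in pLV-SEMA6A, whereas Psmb5, Psmb6 and Psmb7 stay above 267 TPM in all libraries.

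TPM is scaled by length, so levels of 2 subunits of the same site can be set against each other within a library. Psmb9 stood at 4.26 ± 0.467% of Psmb6 in the pLV-Control and at 0.126 ± 0.044% in the pLV-SEMA6A libraries (SD, n = 3), a difference of −5.13 on the log2 scale (SE 0.29). Psmb8 was 2.69 ± 0.485% of Psmb5 and then 0.146 ± 0.091%, a difference of −4.37 (SE 0.51). With 1 TPM added to both values these differences were −3.54 for Psmb9 and −2.94 for Psmb8, so their size depends on levels under 1 TPM. Psmb10 was 13.7 ± 1.71% of Psmb7 and then 9.15 ± 1.47%, a difference of −0.59 (SE 0.17). The β2 site held the largest immuno part in both groups. Against Psme3, which forms the nuclear PA28γ cap and is not known as interferon-induced, Psme1 went from 70.6 ± 5.23% to 42.5 ± 3.41% and Psme2 from 243 ± 8.14% to 80.5 ± 7.44%, with log2 differences of −0.73 (SE 0.09) and −1.60 (SE 0.08). In each of the 5 ratios every pLV-SEMA6A library was below every pLV-Control library, and the exact permutation test, two-sided, gave p = 0.1 for each (0.1 after Benjamini-Hochberg adjustment over the 5), the smallest value that 3 against 3 allows.

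Summed over the 3 sites, the immuno subunits held 6.77%, 5.99% and 5.93% of the catalytic transcripts in the pLV-Control libraries and 2.13%, 2.54% and 2.82% in the pLV-SEMA6A libraries. The mean share went from 6.23 ± 0.470% to 2.50 ± 0.344%, a difference of −3.73 percentage points, and most of what remained was Psmb10. The immuno share of a single site went from 4.09% to 0.126% at β1, from 2.62% to 0.145% at β5 and from 12.04% to 8.37% at β2. The total of both forms differed by site too. The sum of Psmb5 and Psmb8 was 312 ± 14.3 TPM and then 398 ± 4.06 TPM, that of Psmb6 and Psmb9 was 312 ± 3.59 and then 373 ± 3.81 TPM, and that of Psmb7 and Psmb10 was 309 ± 7.10 and then 309 ± 6.27 TPM. The 3 sites were therefore nearly level in transcript in the pLV-Control cells and spread apart in the pLV-SEMA6A cells, where the β2 total was the lowest in every library.

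**Figure D3:**
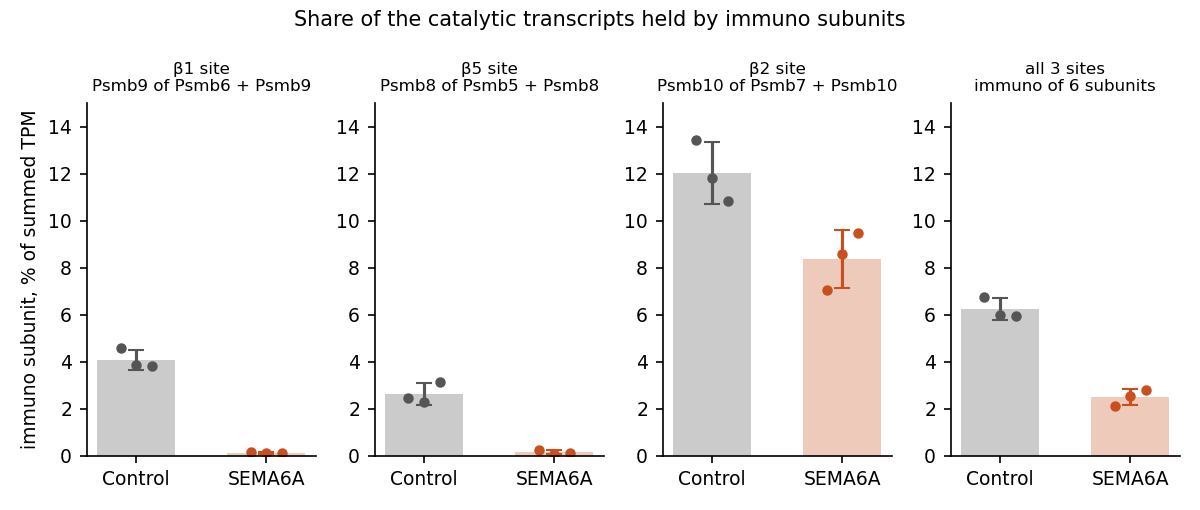
Percent of the summed TPM of each catalytic site, and of all 6 catalytic subunits, held by the immuno form. Bars are group means, error bars SD and points the 3 libraries per group, on axes that start at 0. The share goes to 0.126% at β1 and 0.145% at β5 and stays at 8.37% at β2 in pLV-SEMA6A.

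The positions of the inducible genes are those of GENCODE M21 on GRCm38, matched by identifier, while the processing notes of the submitters name the build mm39. Psmb9 lies on the minus strand at chr17:34181987-34187764 and Psmb8 on the plus strand at chr17:34197721-34201454, inside the MHC, on either side of Tap1. Psme1 is at chr14:55578123-55581529 on the plus strand and Psme2 at chr14:55587441-55591113 on the minus strand. Psmb10 lies apart from both pairs, on the minus strand at chr8:105935735-105938444.

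A window of 50000 bases to either side of the annotated start of Psmb9 was set with the values known. The other tested genes that start in it were H2-DMb1, Tap1, Psmb8 and Tap2. All 4 were DEGs that fell, against 10.8% of all genes tested, and Psmb8 among them is itself an inducible member described above. Tap1, a subunit of the transporter that carries proteasome products into the endoplasmic reticulum, starts inside the longest Psmb9 model on the opposite strand and went from 47.1 to 3.94 TPM (log2 fold change −3.29). Tap2, the other subunit, fell by 0.57 and H2-DMb1, which loads MHC class II, by 0.91 on the log2 scale. The models of Psmb9 and Tap1 overlap by 212 bases, and the strand setting of the counting is not given in the sources used here, so reads from that overlap cannot be told apart.

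Around Psme2, Rnf31 and Irf9 fell besides Psme1. Rnf31, the catalytic subunit of the linear ubiquitin ligase, has its start 595 bases from that of Psme2 on the opposite strand and had a log2 fold change of −0.69, and Irf9, a DNA-binding factor of the type I interferon response, had −1.21. Emc9 (−0.20) and Dcaf11 (−0.39) did not pass, and the importin gene Ipo4 rose (0.40). Around Psmb10 the 2 tested neighbours, Pskh1 (−0.16) and Slc12a4 (−0.12), did not pass.

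**Figure D4:**
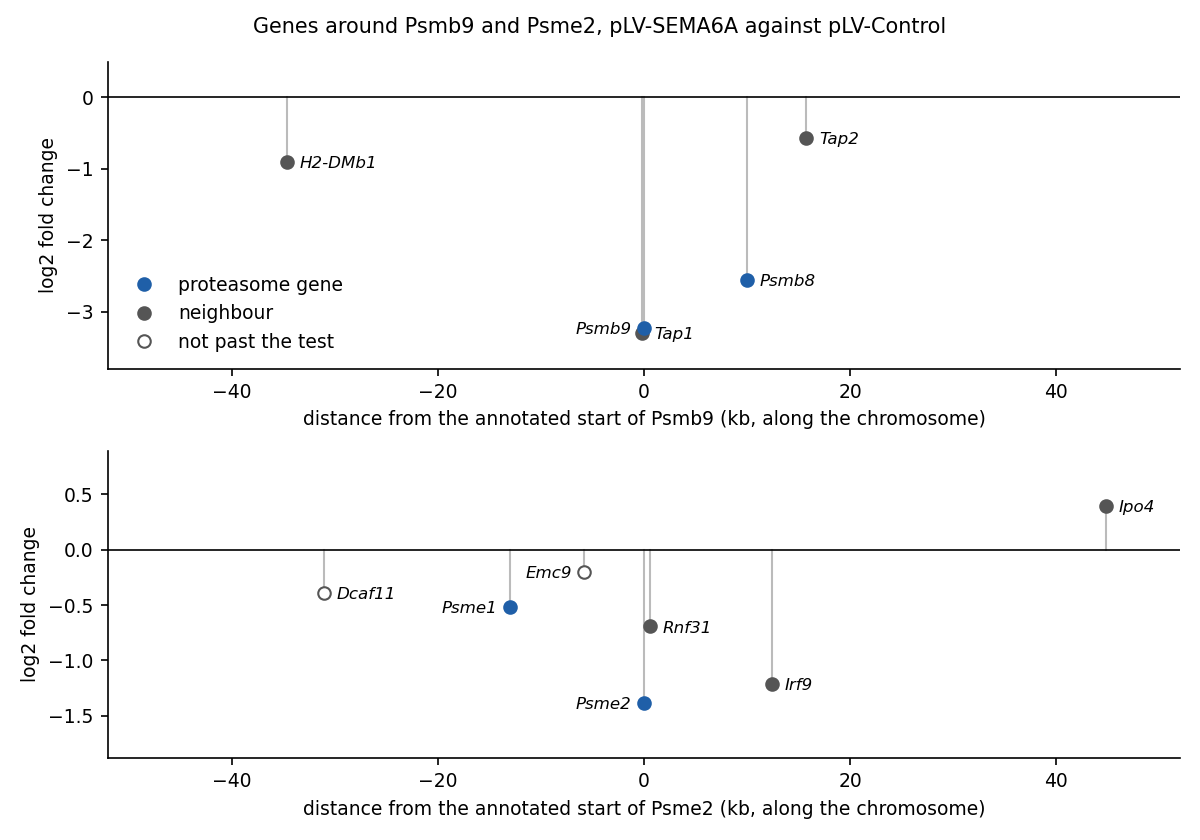
Log2 fold change (pLV-SEMA6A against pLV-Control) of the tested genes whose start lies within 50000 bases of the start of Psmb9 (top) and Psme2 (bottom), against distance in kb. Blue points are proteasome genes, grey points other genes, and open points did not pass the test. All 5 genes in the top panel are below 0, down to −3.29 for Tap1, and Ipo4 is the 1 gene above 0 in the bottom panel (0.40).

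RefSeq promoters (GRCm38.p6, 250 bases before to 50 after the start) were held for the 5 inducible members and for 29 of the 35 others. They were searched on both strands for GAAA, any 2 bases and GAAA (the interferon-stimulated response element, ISRE), TTCNNNGAA (the STAT site, GAS), TGACNNNGC (the antioxidant response element, ARE, which the proteasome regulator NRF1 also binds) and CCAAT. The sites below are shown because they are the matches in the inducible genes and, for the ARE, in their constitutive partners. Psmb7, the partner of Psmb10, was not among the promoters held and so was not searched. The starts used here are those of RefSeq and differ from the GENCODE ends given above. The windows of Psme1, Psmb8 and Psmb9 therefore lie inside the printed GENCODE genes, and the Psme1 match lies after the RefSeq start. Capitals mark the match, and each window is written 5′ to 3′ on the strand of its gene.
Psme1 (ISRE letters, chr14:55578493-55578522, plus strand): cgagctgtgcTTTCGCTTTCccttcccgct
Psmb8 (GAS letters, chr17:34198088-34198116, plus strand): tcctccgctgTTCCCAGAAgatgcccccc
Psmb9 (CCAAT letters, chr17:34187324-34187348, minus strand): gcagccgctgATTGGaaagccgagc
Psmb5 (ARE letters, chr14:54618024-54618052, minus strand): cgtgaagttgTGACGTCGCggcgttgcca
Psmb6 (ARE letters, chr11:70525338-70525366, plus strand): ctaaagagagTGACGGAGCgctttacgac

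The ISRE letters were in 1 of 5 inducible promoters and in 2 of 29 others (Psmb3 and Psmd4), and in 3.99% of all 27025 genes of the table. The GAS letters were in 1 of 5 and in 1 of 29 (Psmd2), against 9.55% of all. The ARE letters were in none of the inducible promoters and in 5 of the 29 others (17.2%), namely Psmb5, Psmb6, Psme4, Psmc6 and Psmd12, against 14.0% of all. CCAAT was in 1 of 5 and in 11 of 29 (37.9%), against 41.1% of all. These shares were near those of all genes or rested on 1 or 2 genes, and the genes with ARE letters included Psme4, which fell, beside Psmb5, Psmb6 and Psmd12, which rose. The Psmb9 window also lies in the promoter of Tap1, read on the other strand. Psmb10 and Psme2 held none of the 4 motifs, which says only that these letters are not in that window.

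The other subunits of the core mostly rose by small amounts. Of the 14 constitutive core genes, 10 rose (19.5% of all genes did), 2 fell (28.2%) and 2 did not pass. Psma3 and Psmb1 were those that fell, and Psmb7 and Psmb3 did not pass. The small rises of Psma1, Psma6, Psma7 and Psmb2 did not pass after quantile normalization. Under that scaling 20 of the 40 members rose and 10 fell, beside 2991 and 2702 of all 12510 genes tested. In centred libraries 31 members rose and 7 fell, beside 3370 and 2474 of all genes tested. Psmb7, Psmb3, Psmc1, Psmc5, Psmc6, Psmd11 and Pomp, which did not pass in the uncentred fit, then passed as higher. Other genes hold 58.7% of the 31-base stretches of Psma5, 32.2% of those of Psmc1 and 31.6% of those of Psmd2, so their levels are uncertain, although the genes that shared most (Gm8394, Gm9575 and Gm5422) were listed at no more than 0.22, 0.46 and 0.02 TPM. The 7 α subunits form the outer rings that gate entry to the core. Their summed level went from 1484 ± 38.8 to 1625 ± 11.97 TPM, 9.52% higher. Psma2 rose the most among them, from 79.4, 74.1 and 73.7 TPM to 90.4, 86.4 and 94.1 TPM (log2 fold change 0.25, SE 0.05, limma adjusted p = 0.00498).

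Psma3 was the α subunit that fell, from 175, 188 and 162 TPM to 151, 159 and 151 TPM (log2 fold change −0.18, SE 0.06, limma adjusted p = 0.0347). The groups did not overlap, but 16.2% of the 31-base stretches of its transcripts occur in the processed pseudogene Gm13835, which was at 128, 119 and 124 TPM in pLV-Control cells against 140, 130 and 146 TPM in pLV-SEMA6A cells. Summed over the 2 genes the libraries overlapped, at 304, 307 and 287 TPM against 292, 289.6 and 297 TPM (log2 difference −0.03, exact permutation p = 0.4, two-sided). The call on Psma3 was also lost when the libraries were centred (−0.09, limma adjusted p = 0.23) and in 5 of the 6 fits that left out 1 library.

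Among the 4 structural β subunits, Psmb4 had the highest level of all members and rose from 424, 459 and 419 TPM to 495, 489.8 and 495 TPM (log2 fold change 0.19, SE 0.04, limma adjusted p = 0.00645). Psmb1 fell from 209, 218 and 209 TPM to 195, 192 and 199.6 TPM (−0.12, SE 0.03, limma adjusted p = 0.0151). The libraries of both genes did not overlap between the groups, but the fall of Psmb1 was −0.02 and did not pass in centred libraries (adjusted p = 0.58, limma). Psmb2 rose (0.18) and Psmb3 did not pass (0.05).

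In the 19S cap, 13 of 17 genes rose (19.5% of all genes did), none fell (28.2%) and 4 did not pass. The median log2 fold change of the 17 was 0.29, beside −0.06 over all genes tested. The ATPases Psmc1 to Psmc6 form the ring that unfolds substrates and threads them into the core. Psmc3 rose the most, from 212, 193 and 197 TPM to 274, 286 and 269.9 TPM (log2 fold change 0.46, SE 0.04, limma adjusted p = 0.000253), and Psmc2 (0.29) and Psmc4 (0.38) rose too. Psmc5 was at 255.9, 260.1 and 249.97 TPM in pLV-Control against 254.9, 255.9 and 252.9 TPM in pLV-SEMA6A. Its libraries overlapped and its log2 fold change was −0.00 (SE 0.02, limma adjusted p = 0.896), which turned to 0.09 in centred libraries (adjusted p = 0.0219, limma) and to −0.09 after quantile normalization (adjusted p = 0.0167, limma).

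Of the 11 non-ATPase genes of the cap, which hold the ubiquitin receptors, the scaffold and the deubiquitinase, 10 rose (19.5% of all genes did). Psmd6, a scaffold subunit of the lid, went from 58.1, 60.2 and 51.6 TPM to 82.6, 83.7 and 84.9 TPM. Every pLV-SEMA6A library was higher, and the log2 fold change of 0.56 (SE 0.06, limma adjusted p = 0.000482) made it a DEG, though not without pLV-Control replicate 3 (0.49), when no member was a DEG that rose. The genes that rose also included Psmd12 (0.49), the scaffolds Psmd1 (0.43) and Psmd2 (0.39), the ubiquitin receptor Psmd4 (0.34) and the deubiquitinase Psmd14 (0.23). Psmd11 had the lowest change of this role, from 99.1, 100.7 and 99.3 TPM to 105, 105 and 102 TPM, with no overlap (log2 fold change 0.06, SE 0.03, limma adjusted p = 0.116). The summed level went from 1335 ± 21.1 to 1529.98 ± 0.921 TPM for the ATPases and from 1689 ± 15.9 to 2072 ± 10.1 TPM for the non-ATPases, that is, 14.6% and 22.7% higher.

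The highest and the lowest α subunit, Psma7 and Psma2, stood 4.13-fold apart in the pLV-Control and 3.85-fold apart in the pLV-SEMA6A libraries. Among the non-ATPases Psmd8 had the highest and Psmd6 the lowest mean in both groups, 5.94-fold and 4.55-fold apart. In pLV-SEMA6A the libraries of Psmd6 overlapped those of Psmd13. Psmb5, Psmb6 and Psmb7 lay within 1.12-fold in pLV-Control, where Psmb5 and Psmb6 overlapped, and 1.40-fold apart with no overlap in pLV-SEMA6A. The ATPase order changed, with Psmc5 at the top in pLV-Control, overlapping Psmc2, and Psmc2 at the top in pLV-SEMA6A, overlapping no other. The coefficient of variation of the 35 members that are not inducible had a median of 2.63% in pLV-Control (0.450% to 8.89%) and 1.84% in pLV-SEMA6A (0.610% to 11.8%).

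The remaining members differed by role. Psme3 rose from 108, 106 and 104 TPM to 119, 119 and 129 TPM (log2 fold change 0.20, SE 0.04, limma adjusted p = 0.00638). Psme4, the nuclear activator PA200, fell from 50.2, 51.5 and 48.0 TPM to 37.8, 37.7 and 36.4 TPM (−0.41, SE 0.04, limma adjusted p = 0.000366). Transcripts of the 3 kinds of non-ATPase cap thus differed in direction, with PA28αβ and PA200 lower and PA28γ higher. The groups did not overlap for any of these genes, which was also the case for 58.5% of all genes. Psmf1, the inhibitor PI31, fell from 16.7, 14.9 and 17.9 TPM to 12.6, 12.6 and 10.2 TPM (−0.46, SE 0.10, limma adjusted p = 0.011), and it was a DEG without pLV-Control replicate 2 (−0.52), pLV-SEMA6A replicate 1 (−0.50) or pLV-SEMA6A replicate 2 (−0.50). Pomp, the assembly factor that is degraded in each finished core and is needed for immunoproteasomes as well, was at 213, 239.9 and 225 TPM in pLV-Control against 229.8, 254 and 251 TPM in pLV-SEMA6A. The Pomp libraries overlapped and its log2 fold change of 0.12 (SE 0.06) did not pass (limma adjusted p = 0.132).

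All 40 members together made up 0.746 ± 0.012% of the listed TPM in pLV-Control cells against 0.832 ± 0.004% in the pLV-SEMA6A libraries. The median log2 fold change of the 35 members that are not inducible was 0.20, beside −0.06 over all genes. It was 0.30 in centred and 0.15 in quantile-normalized libraries, where the medians over all genes were 0.03 and 0.02.

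Genes that act with the proteasome without being members were read from lists written by hand. These included 24 genes for assembly, nuclear import, further cap subunits, associated enzymes, ubiquitin shuttling and the segregase Vcp. Of the 24, 21 were tested, of which 8 rose (19.5% of all genes did), none fell (28.2%) and 13 did not pass. Vcp, which extracts ubiquitinated proteins and hands them to the proteasome, was the DEG among them, at 240.4, 242 and 244 TPM in pLV-Control against 357, 354 and 356 TPM in pLV-SEMA6A (log2 fold change 0.55, SE 0.02, limma adjusted p = 6.09e-06). Psma8, the α subunit of testis, was listed at 0 in every library, and Psmb11, the β5 subunit of thymus, reached 0.07 TPM, so neither tissue-restricted core gene was measured above 0.07 TPM. Paaf1 was not analysed here.

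Regulators of proteasome genes moved in both directions. Irf1, the factor that binds the Psmb9 and Tap1 promoter, was at 26.7, 29.3 and 25.1 TPM in pLV-Control against 12.2, 10.4 and 12.8 TPM in pLV-SEMA6A (log2 fold change −1.13, SE 0.09, limma adjusted p = 0.000166). Nlrc5, the transactivator of MHC class I genes, went from 35.8 ± 2.12 to 9.24 ± 0.226 TPM (−1.84, SE 0.06, limma adjusted p = 3.73e-06). Both are themselves interferon-induced and were DEGs, with no overlap between the groups. Nfe2l1, which encodes the factor NRF1 that drives the constitutive subunits when proteasome activity is short, fell by less, from 272 ± 18.3 to 217 ± 10.1 TPM (−0.32, SE 0.06, limma adjusted p = 0.00423), while Ngly1, the glycosidase that acts on NRF1, rose (0.42).

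Of 8 genes that trim or transport peptides after the proteasome, 5 fell (28.2% of all genes did), 2 rose (19.5%) and 1 did not pass. Tap1, Tap2 and Erap1, the aminopeptidase of the endoplasmic reticulum, were DEGs that fell. Erap1 was at 15.4, 16.9 and 20.7 TPM in pLV-Control against 7.66, 5.23 and 7.67 TPM in pLV-SEMA6A (log2 fold change −1.25, SE 0.16, limma adjusted p = 0.0012). Thop1, a cytosolic peptidase that destroys proteasome products, was a DEG that rose, from 29.9 ± 0.325 to 52.8 ± 0.876 TPM (0.80, SE 0.03, n = 3 per group, limma adjusted p = 1.23e-05). The interferon-inducible trimming enzyme Lap3 rose (0.26), against the direction of Tap1 and Erap1, and Npepps (−0.38) and Tpp2 (−0.19) fell. The call on Tpp2 was lost in centred libraries (adjusted p = 0.177, limma), after quantile normalization (adjusted p = 0.0674, limma) and in 4 of the 6 fits that left out 1 library, namely pLV-Control replicate 2 or 3 or pLV-SEMA6A replicate 2 or 3 (adjusted p = 0.0603 to 0.0726, limma).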

How the data were processed

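The data were 6 RNA-seq libraries, 3 from pLV-Control and 3 from pLV-SEMA6A cells. The authors deposited TPM with 2 decimals and the mean of each group, which was not used. Their processing notes name Bowtie2, HISAT, RSEM and mm39, with no version or role. Their comparison used a count model, which needs read counts, so limma 3.58.1 in R 4.3.3 was run on log2(TPM + 1) with trend and group as the only term, over 12510 genes that averaged 1 TPM or more, with Benjamini-Hochberg adjustment. TPM keeps no depth. Ratios used an exact permutation test (SciPy 1.17.1). The labels give no batch. Members and lists were chosen with earlier results of these data known. Per-library values are given for the inducible genes, their partners, other DEGs and the extremes of each role, and further genes named were chosen after their values were seen. Positions and 31-base stretches came from GENCODE M21, in which 52093 identifiers occurred, and promoters from RefSeq. Steps were tested on simulated data. Alternatives were other pseudocounts, filters, scalings, fold limits, the replicate block and leaving out each library. The results of 2 further genes are not reported here.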

Additional observations from a re-analysis of the deposited data

How the results depend on the processing

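The 5 inducible genes kept their direction under every alternative run, and Psmb8, Psmb9, Psme1 and Psme2 passed the test in each fit that held them (Psmb8 was left out at a mean of at least 5 TPM). Leaving out each library in turn gave log2 fold changes of −2.73 to −2.43 for Psmb8, −3.32 to −3.14 for Psmb9, −0.62 to −0.39 for Psmb10, −0.56 to −0.45 for Psme1 and −1.44 to −1.34 for Psme2. Psmb10 kept −0.51 but did not pass with no filter on low values (adjusted p = 0.0532, limma) or with the replicate block (−0.51, adjusted p = 0.0593, limma), and its adjusted p ranged from 0.0165 to 0.0808 over all alternatives. Members that were DEGs and fell numbered 3 in centred libraries, 9 with no minimum fold change, 3 with a minimum log2 fold change of 1, and 4 to 5 when 1 library was left out. Those that rose numbered 4, 24, 0 and 0 to 2. The members that fell were not always inducible genes. Psmf1 was counted without pLV-Control replicate 2, pLV-SEMA6A replicate 1 or pLV-SEMA6A replicate 2. Psmb10 was not a DEG in any of these fits, and Psme1 was not without pLV-Control replicate 2 or pLV-SEMA6A replicate 1. Psmc5 turned to 0.0890 in centred libraries. A pseudocount of 1 in the ratios, which acts on low values, gave −2.94 for Psmb8 to Psmb5 and −3.54 for Psmb9 to Psmb6. The difference in immuno share was −3.21 percentage points without Psmb10 and Psmb7, and −3.89 to −3.46 when 1 library was left out. In the replicate block 33 of the 35 other members kept their call, Psmb1 lost and Pomp gained it. Same-numbered libraries deviated with correlations of −0.08 to −0.02 (mean 0.03 for other numbers). With 3 libraries per group these values cannot exclude pairing, and the labels do not state it. The sum of Psma3 and Gm13835 was added after seeing the data. TPM gives no depth, so its limits on low values are unknown.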
